A study of Mus musculus with 15 samples.

Results

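Costimulatory and inhibitory receptors and ligands of the immune synapse were followed in macrophages that had taken up silica nanoparticles. The 10 genes, of 57186 in the count table, are the B7 and CD28 family members Pdcd1, Cd28, Cd80, Cd86 and Cd274, the CD200 receptors Cd200r1 and Cd200r4, the CD47 receptor Sirpa, the tumor necrosis factor receptor family member Cd40 and the TIM family member Havcr2. They were listed by name for these families, and Pdcd1 and Cd28 were selected on their measured counts in this line, where macrophages would not usually carry these T cell receptors. The levels of Pdcd1 and Cd28 are therefore a description without a test, and counts of called genes below are over the other 8. All 10 genes had at least 10 counts summed over the libraries, the limit below which a gene was not tested.

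The cells were RAW264.7, an established mouse macrophage line grown from a virus-induced tumor, so the libraries stand for cultures of a single line and not for animals. Poly(A) RNA was sequenced after 6 h with SNP100 (nonporous silica particles of nominally 100 nm, 50 µg/mL), SNP50 (nonporous, 50 nm, 25 µg/mL), MSNP (mesoporous, 100 nm, 200 µg/mL) or HMSNP (hollow mesoporous, 100 nm, 200 µg/mL), or without particles (Control). Each of the 5 groups had 3 libraries, and no group carried a genetic change or another agent. The comparisons ask how the porosity, hollow core and size of the particles bear on gene expression after saturating uptake. The doses are those the study used for each particle, so that only MSNP and HMSNP, at 200 µg/mL each, were compared at a matched dose.

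As background, full activation of a T cell needs a second signal beside the antigen receptor, which CD80 or CD86 on an antigen-presenting cell gives by binding CD28. Inhibitory pairs hold this in check, among them PD-L1 (the product of Cd274) with PD-1 (Pdcd1), and CD80 or CD86 with CTLA-4. Macrophages carry inhibitory receptors of their own, such as the CD200 receptor and SIRPα, which binds CD47 on other cells and restrains phagocytosis, whereas CD40 receives the activating signal of CD40 ligand.

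Promoter sequence was looked up for the genes as a description, and RefSeq entries on GRCm38.p6 matched 5 of the 10 (Pdcd1, Cd80, Cd274, Cd200r4 and Havcr2). The 250 bases before the annotated start are printed 5′ to 3′ for 4 of these, the gene at 0 counts under MSNP (Pdcd1), the tested gene that rose most there (Cd200r4), the B7 gene that rose under HMSNP (Cd80) and the gene that fell (Havcr2). Capitals mark the matches to a short motif on the printed strand, which are AP-1-type TGANTCA in Cd80 and Havcr2 and PU.1-type GAGGAA in Pdcd1 and Havcr2.
Pdcd1 (chr1:94052554-94052803, minus strand): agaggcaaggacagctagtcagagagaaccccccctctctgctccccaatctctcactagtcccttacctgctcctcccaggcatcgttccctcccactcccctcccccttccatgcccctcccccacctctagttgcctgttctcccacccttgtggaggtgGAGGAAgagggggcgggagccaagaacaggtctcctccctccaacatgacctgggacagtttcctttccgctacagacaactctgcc
Cd80 (chr16:38458683-38458932, plus strand): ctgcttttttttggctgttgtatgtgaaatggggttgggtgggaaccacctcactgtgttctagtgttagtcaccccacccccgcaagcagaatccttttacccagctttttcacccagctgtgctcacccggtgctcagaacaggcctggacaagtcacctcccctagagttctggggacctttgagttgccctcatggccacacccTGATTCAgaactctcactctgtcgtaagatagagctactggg
Cd200r4 (chr16:44820478-44820727, plus strand): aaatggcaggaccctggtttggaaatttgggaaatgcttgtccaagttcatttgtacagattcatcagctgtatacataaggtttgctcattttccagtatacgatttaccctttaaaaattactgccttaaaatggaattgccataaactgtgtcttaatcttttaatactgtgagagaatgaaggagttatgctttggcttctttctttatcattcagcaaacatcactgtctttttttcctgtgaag
Havcr2 (chr11:46454681-46454930, plus strand): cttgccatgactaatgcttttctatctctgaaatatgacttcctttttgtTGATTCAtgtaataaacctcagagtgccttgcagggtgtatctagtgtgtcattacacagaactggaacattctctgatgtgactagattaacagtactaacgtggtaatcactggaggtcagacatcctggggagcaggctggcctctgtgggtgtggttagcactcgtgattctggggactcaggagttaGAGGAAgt

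Of all 32851 RefSeq promoters of the same length, 6.75% hold TGANTCA and 23.3% hold GAGGAA on either strand. No match to the E-box CACGTG (6.02% of all promoters) or to the NF-κB consensus (7.25%) was found in the 5 promoters, nor any of the 4 motifs in Cd200r4 or Cd274. A match is a description of letters and not a binding site. Motifs do not overlap in the printed sequences.

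Total counts on genes lay between 29369934 and 42617812 per library, and levels are given as CPM, the counts scaled to a common library size. All 10 of 10 macrophage markers stood at 1 CPM or more in every group, with summed levels of 15400 to 19400 CPM in Control and 13000 to 14000 CPM in MSNP. Among 18 T cell markers, 2 (Lck and Cd5) reached 1 CPM in any group, Cd3d, Cd3e and Cd3g had at most 1 count in a library, and Cd8a, Trbc1 and Trbc2 were at 0 throughout. The summed T cell markers were 9.72 to 10.9 CPM in MSNP and 9.77 to 10.4 CPM in Control, and the NK and B cell lists had no marker at 1 CPM. Of 6 dendritic cell markers 1, Zbtb46, was above 1 CPM. Control replicate 3 stood apart from the other controls with gene length, its level relative to theirs running from a median log2 difference of 0.61 in the shortest of 10 length classes of expressed genes to -0.60 in the longest. The log2 differences of the 10 genes from Control are therefore given with and without it. The other controls also differed from each other more than libraries of a treated group did, with a mean chi-square per gene of 62.3 between Control replicates 1 and 2, 166 and 195 between these and replicate 3, and 4.4 to 13.4 within the treated groups. The library names carry a different leading number for each group, without saying what it stands for. This number and treatment cannot be told apart. Nothing says that the 3 libraries of a group came from separate cultures, so p-values measure only the spread between these samples.

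The genes of the CD28 family receptors of T cells, Pdcd1 and Cd28, moved in opposite directions under MSNPs. Pdcd1 (chromosome 1, 93966027 to 93980312, minus strand, GRCm39), which encodes the inhibitory receptor PD-1, had 14, 19 and 32 counts in the nontreated controls, or 0.426, 0.549 and 0.833 CPM. In the MSNP-treated group it had 0 counts in all 3 libraries. HMSNP libraries had 15, 19 and 30 counts, SNP100 libraries 18, 9 and 8, and SNP50 libraries 9, 19 and 11. The MSNP libraries were thus the 3 in which no read was counted, and the other groups overlapped with one another.

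A count of 0 over the MSNP libraries allows up to 3 counts, or 0.0297 CPM over the group, counting error only. Against that floor Pdcd1 was at least 20.7-fold lower than in Control, at least 18.7-fold lower than in HMSNP and at least 10.6-fold lower than in SNP100. The bound against Control rests on the summed depth and became 13 without MSNP replicate 2. For HMSNP the fitted log2 difference from Control was -0.15 (SE 0.337), for SNP100 it was -0.95 (SE 0.367) and for SNP50 it was -0.59 (SE 0.362). Without Control replicate 3, the control with most counts, these were 0.17, -0.64 and -0.28, so that the sign for HMSNP turned. Per exon length it was the lowest of the 10 genes in every group.

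Cd28 (chromosome 1, 60755959 to 60812518, plus strand), the receptor through which T cells take the second signal, stood at 10.9, 14.0 and 8.83 CPM in Control. The MSNP libraries had 138, 131 and 121 CPM, from 4183, 4867 and 4091 counts. This was 11.6-fold higher than Control, a log2 difference of 3.54 (SE 0.141), and 3.40 without Control replicate 3. The lowest MSNP library lay far above the highest of every other group.

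The nonporous particles came next for Cd28, with 23.5, 22.2 and 19.5 CPM in SNP100 and 18.0, 20.9 and 19.1 CPM in SNP50. These were 1.94-fold and 1.73-fold above Control, and without Control replicate 3 the log2 differences fell from 0.95 to 0.80 and from 0.79 to 0.63. HMSNP, at 11.7, 10.6 and 10.1 CPM, overlapped with Control, with a log2 difference of -0.06 (SE 0.136), or -0.21 without Control replicate 3. MSNPs and HMSNPs at the same dose were separated 12.1-fold in Cd28, while the summed T cell markers were 9.72 to 10.9 CPM in MSNP and 6.94 to 8.12 CPM in HMSNP. The sum was mostly Lck, at 7.65 ± 0.509 CPM in Control and 5.88 ± 0.289 CPM in MSNP (SD, n = 3). Cd5 was higher in MSNP, at 2.56 to 2.96 CPM against 1.38 to 1.86 CPM in Control without overlap, and Lat stood at 0.970 ± 0.231 CPM in MSNP and 0.566 ± 0.0161 CPM in Control. Zap70 had 2 to 5 counts in MSNP libraries and 0 to 2 in Control libraries. Among those markers Cd4 had 12, 11 and 10 counts in MSNP and at most 4 in any other library, while Cd3d, Cd3e and Cd3g had at most 1 count in the MSNP libraries as elsewhere. These markers were singled out after their values were seen, and their part in the Cd28 counts was not tested.

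**Figure D1:**
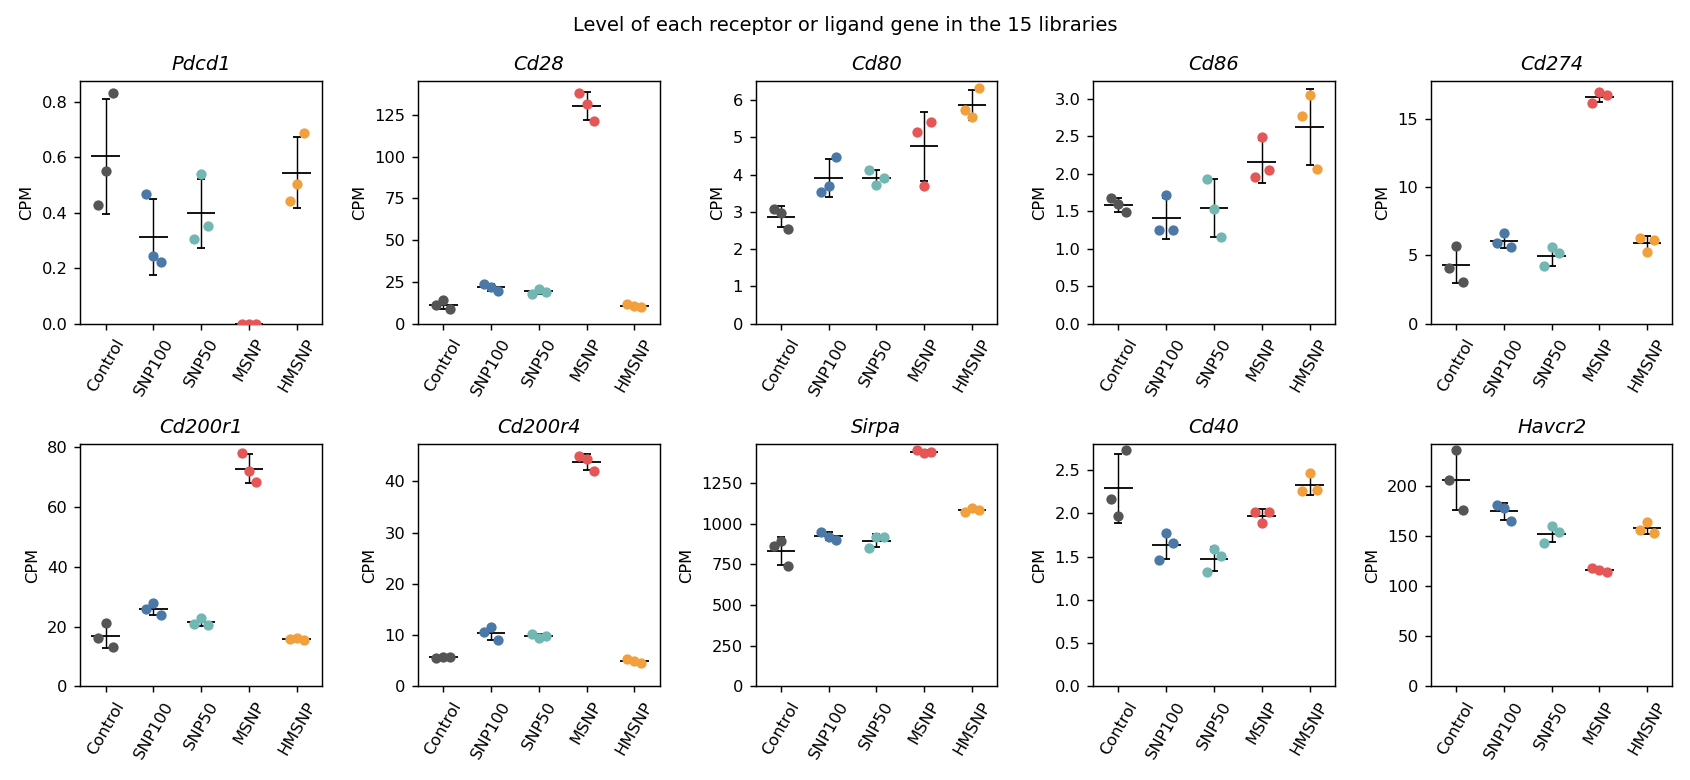
Level of each of the 10 genes in each library, in CPM on a linear axis from 0 that differs between panels, by group, with a point for each library and lines for the group mean and SD. Pdcd1 has no count in the 3 MSNP libraries, and Cd28, Cd200r1, Cd200r4 and Cd274 stand highest in MSNP.

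Among the genes for ligands that macrophages show to T cells, Cd274 RNA rose under MSNPs and Cd80 RNA rose under both mesoporous particles. Cd86 missed the threshold against Control in all 4 treated groups, narrowly in HMSNP. These are RNA levels, and protein at the cell surface was not measured in these libraries. Cd274 (chromosome 19, 29344529 to 29365495, plus strand), which encodes the inhibitory ligand PD-L1, stood at 4.11, 5.67 and 3.05 CPM in Control and at 16.2, 17.0 and 16.8 CPM in MSNP. The 3.90-fold increase (log2 1.96, SE 0.17) passed the quasi-likelihood test of edgeR, with p adjusted over all genes by Benjamini-Hochberg, at an adjusted p of 4.56e-07, and the log2 value was 1.77 without Control replicate 3. HMSNP libraries had 6.29, 5.28 and 6.12 CPM and overlapped with Control (log2 0.47, adjusted p = 0.128). The SNP100 libraries (5.93, 6.64 and 5.65 CPM) and the SNP50 libraries (4.19, 5.58 and 5.15 CPM) overlapped with Control as well, with log2 differences of 0.51 (adjusted p = 0.271) and 0.23 (adjusted p = 0.694). Control replicate 2 was the highest control for this gene, and without it the log2 differences were 0.77 for SNP100 (adjusted p = 0.0208) and 0.74 for HMSNP (adjusted p = 0.00615).

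Cd80 (chromosome 16, 38275923 to 38316697, plus strand), a costimulatory ligand of CD28 and CTLA-4, was low throughout, at 3.08, 2.98 and 2.55 CPM in Control. It was highest in HMSNP, at 5.73, 5.54 and 6.32 CPM, a 2.05-fold increase (log2 1.03, SE 0.146, adjusted p = 0.000651, and 0.96 without Control replicate 3). In MSNP it was 5.16, 3.70 and 5.42 CPM, a 1.66-fold increase (log2 0.73, SE 0.148, adjusted p = 0.00194, and 0.65 without Control replicate 3). Every library of both groups lay above every control. The summed dendritic cell markers, of which 1 (Zbtb46) reached 1 CPM, were 3.45 to 4.29 CPM in HMSNP and 2.37 to 3.08 CPM in Control. HMSNP overlapped in this sum with MSNP (2.81 to 3.54 CPM), SNP100 (2.6 to 3.64 CPM) and SNP50 (2.77 to 3.71 CPM). The part of these markers in the Cd80 and Cd86 levels was not tested. For Cd80 the SNP100 libraries (3.54, 3.70 and 4.49 CPM) and SNP50 libraries (4.12, 3.71 and 3.90 CPM) also lay above the controls, but their log2 difference of 0.45 in each did not pass (adjusted p = 0.259 and 0.212).

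Cd86 (chromosome 16, 36424044 to 36486443, minus strand), the other ligand of CD28, had 1.68, 1.59 and 1.48 CPM in Control and 2.76, 3.05 and 2.06 CPM in HMSNP. Its log2 difference of 0.73 (SE 0.2) missed the threshold at an adjusted p of 0.0501, and in MSNP, at 1.95, 2.48 and 2.05 CPM, it was 0.45 (SE 0.204, adjusted p = 0.13). For HMSNP the call was gained with DESeq2 (log2 0.74, adjusted p = 0.0126), RLE scaling, the filterByExpr filter, no filter, the length offset and the replicate block. It was also gained on leaving out any of 5 of the 15 libraries in turn, down to 0.03 without Control replicate 2, and was not gained in the fit of 6 libraries (adjusted p = 0.274) or without Control replicate 3 (log2 0.68, adjusted p = 0.064). Every library of both groups lay above every control, and the 36 to 115 counts per library behind these levels limit the precision. In the SNP100 (1.25, 1.72 and 1.25 CPM) and SNP50 groups (1.92, 1.53 and 1.15 CPM) it overlapped with Control, with log2 differences of -0.17 (adjusted p = 0.795) and -0.04 (adjusted p = 0.976). Cd80 had 1.72 to 1.87 counts for each count of Cd86 in Control, 1.82 to 3.07 in HMSNP, 1.49 to 2.65 in MSNP, 2.16 to 3.6 in SNP100 and 2.14 to 3.39 in SNP50. In SNP100 and SNP50 every library lay above every control in this ratio, and HMSNP and MSNP overlapped with Control.

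RNA of both CD200 receptors rose under MSNPs, and neither gene passed the test under HMSNPs. Cd200r1 (chromosome 16, 44586096 to 44615343, plus strand), the inhibitory receptor for CD200 on myeloid cells, stood at 16.0, 21.1 and 13.3 CPM in Control and at 77.9, 72.1 and 68.4 CPM in MSNP. The 4.33-fold increase (log2 2.11, SE 0.13) had an adjusted p of 1.04e-08 and was 1.98 on the log2 scale without Control replicate 3. HMSNP libraries held 16.0, 16.1 and 15.4 CPM, inside the range of the controls (log2 -0.09, adjusted p = 0.715). SNP100, at 26.0, 28.0 and 23.8 CPM, was above every control (log2 0.62, SE 0.127, adjusted p = 0.0312), a call that was lost on leaving out any of 12 of the 15 libraries in turn. SNP50, at 20.9, 22.8 and 20.5 CPM, overlapped with Control (log2 0.35, adjusted p = 0.26), and without Control replicate 2 its log2 difference was 0.55 (adjusted p = 0.0138).

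Cd200r4 (chromosome 16, 44632096 to 44659513, plus strand) lies next to Cd200r1 and encodes a related receptor that signals through an activating adaptor. Its controls were tight, at 5.48, 5.78 and 5.73 CPM, and the MSNP libraries had 44.9, 44.5 and 42.1 CPM. This 7.73-fold increase (log2 2.95, SE 0.0951, adjusted p = 1.89e-11) was the largest among the 8 tested genes, and was 2.97 on the log2 scale without Control replicate 3.

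The nonporous particles raised Cd200r4 too. SNP100 libraries held 10.5, 11.6 and 9.03 CPM, a 1.83-fold increase (log2 0.88, SE 0.0941, adjusted p = 0.000512), and SNP50 libraries 10.1, 9.41 and 9.76 CPM, a 1.72-fold increase (log2 0.78, SE 0.0949, adjusted p = 0.000951). Without Control replicate 3 the log2 values were 0.88 and 0.79, and neither call held when only the 6 libraries of the comparison were fitted (adjusted p = 0.276 and 0.306). HMSNP libraries, at 5.38, 4.91 and 4.61 CPM, lay just below the controls without passing the test (log2 -0.19, 95% interval -0.40 to 0.02, adjusted p = 0.236).

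The CD200 receptors were also set against each other, with 57.6, 61.7 and 61.5 counts of Cd200r4 per 100 counts of Cd200r1 in MSNP against 34.2, 27.4 and 43.1 in Control and 33.6, 30.5 and 29.9 in HMSNP. SNP100 had 40.5, 41.5 and 38.0 and SNP50 48.4, 41.2 and 47.7. The MSNP libraries lay above all others in this ratio. Of 2043 distinct windows of 75 bases in Cd200r4 transcripts, 50 (2.45%) occur in another gene, 36 of them in Cd200r2 and 14 in Cd200r1. How reads from shared sequence were counted was not tested.

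Sirpa (chromosome 2, 129434039 to 129474148, plus strand), the receptor for CD47, was the most abundant of the 10 and rose under both mesoporous particles. Control libraries had 862, 897 and 738 CPM, MSNP libraries 1457, 1434 and 1444 CPM and HMSNP libraries 1074, 1095 and 1085 CPM. The 1.74-fold increase in MSNP (log2 0.80, SE 0.0689, adjusted p = 4.56e-07) was 0.72 on the log2 scale without Control replicate 3. The 1.30-fold increase in HMSNP (log2 0.38, SE 0.0685, adjusted p = 0.00408) was 0.30 without it (adjusted p = 0.000263). Neither treated group overlapped with Control, while the call for HMSNP was lost in the fit of its 6 libraries alone (adjusted p = 0.28). SNP100 (950, 919 and 902 CPM; log2 0.15, adjusted p = 0.461) and SNP50 (850, 918 and 921 CPM; log2 0.11, adjusted p = 0.602) did not pass.

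Havcr2 (chromosome 11, 46345673 to 46374149, plus strand), which encodes TIM-3, an inhibitory receptor of exhausted T cells that myeloid cells also carry, was the tested gene that fell with MSNPs. It stood at 206, 236 and 176 CPM in Control and at 118, 116 and 114 CPM in MSNP, 1.78-fold lower (log2 -0.83, SE 0.0893, adjusted p = 4.77e-06). HMSNP libraries held 156, 165 and 153 CPM (log2 -0.38, SE 0.0887, adjusted p = 0.0212), and SNP50 libraries 143, 160 and 154 CPM (log2 -0.44, SE 0.0888, adjusted p = 0.0257). All 3 groups lay below every control. SNP100, at 181, 178 and 165 CPM, overlapped with Control replicate 3 and did not pass (log2 -0.24, adjusted p = 0.335).

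For Havcr2 the controls spread most, and Control replicate 3 was the lowest of them. Without it the log2 differences were -0.92 in MSNP, -0.49 in HMSNP (adjusted p = 5.2e-05), -0.54 in SNP50 (adjusted p = 3.89e-05) and -0.34 in SNP100 (adjusted p = 0.0033). The call for HMSNP was lost on leaving out any of 8 of the 15 libraries in turn, and that for SNP50 on leaving out any of 10, with adjusted p up to 0.127 and 0.202.

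Cd40 (chromosome 2, 164897544 to 164914868, plus strand), the receptor for CD40 ligand, was low in this line, at 2.16, 1.97 and 2.73 CPM in Control. SNP50 libraries held 1.32, 1.59 and 1.5 CPM, below every control (log2 -0.64, SE 0.148), and the adjusted p of 0.0497 was lost on leaving out any of 13 of the 15 libraries in turn, reaching 0.224. SNP100 libraries were also below every control, at 1.46, 1.77 and 1.66 CPM, without passing (log2 -0.49, adjusted p = 0.17). MSNP (2.02, 1.89 and 2.02 CPM) and HMSNP (2.26, 2.47 and 2.27 CPM) overlapped with Control, with log2 differences of -0.22 (95% interval -0.52 to 0.09, adjusted p = 0.307) and 0.02 (adjusted p = 0.96).

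The remaining log2 differences without Control replicate 3 were as follows. For Cd40 they were -0.49 in SNP50 (adjusted p = 0.0333), -0.34 in SNP100, -0.06 in MSNP and 0.18 in HMSNP, and for Cd86 0.42 in MSNP, -0.22 in SNP100 and -0.10 in SNP50. For Cd80 they were 0.36 in both SNP100 and SNP50, for Cd274 0.31 in SNP100, 0.02 in SNP50 and 0.27 in HMSNP, and for Sirpa 0.07 in SNP100 and 0.02 in SNP50. For Cd200r1 they were 0.48 in SNP100 (adjusted p = 0.00699), 0.20 in SNP50 and -0.23 in HMSNP, and for Cd200r4 -0.19 in HMSNP. Those of Cd40 in SNP50 and Cd200r1 in SNP100 were called, and the others were not.

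Of the 8 tested genes, 6 were called under MSNPs (5 higher, 1 lower), with a median log2 difference of 0.76 against -0.05 over all 19839 genes tested. Of those 22.8% were called, 11.8% higher and 11% lower. Under HMSNPs 3 were called (2 higher, 1 lower) with a median of 0.20, where 5.16% of all genes were called, 2.46% higher and 2.7% lower, and the median was -0.04. Under SNP100 2 were called, both higher, with a median of 0.30, where 0.912% of all genes were called (0.509% higher, 0.403% lower) and the median was -0.02. Under SNP50 3 were called (1 higher, 2 lower) with a median of 0.17, where 1.41% of all genes were called (0.454% higher, 0.958% lower) and the median was 0.00. These comparisons share the 3 controls, and the genes were chosen with results of these data known, so the counts describe the list. Without Control replicate 3 the counts were 6, 3, 3 and 3, and without Control replicate 2 they were 6, 5, 3 and 3, for MSNP, HMSNP, SNP100 and SNP50. Without Control replicate 1 they were 6, 2, 1 and 1. The share of all genes called without each control is not given here, so changes in these counts are not read as particular to the list.

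**Figure D2:**
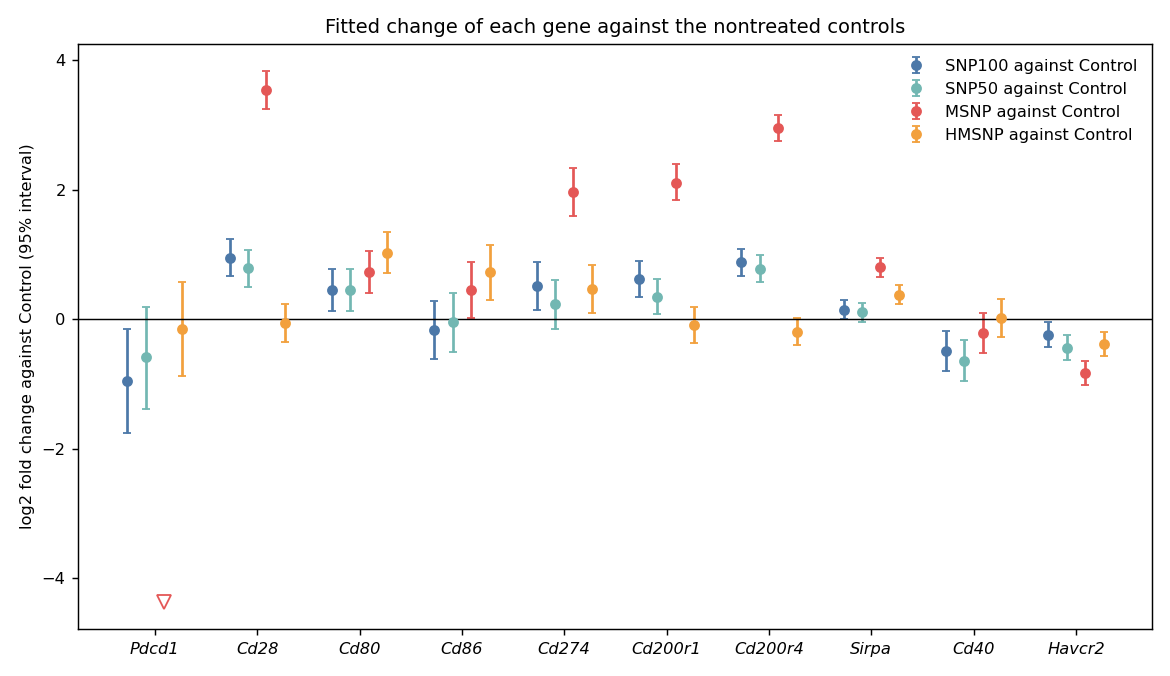
Log2 difference of each treated group from Control for the 10 genes, with a filled point for the fitted value, a bar for the 95% interval of the edgeR fit, and an open triangle at the bound for Pdcd1 in MSNP. Cd28 at 3.54 and Cd200r4 at 2.95 are the largest increases, both in MSNP, while both lie near 0 in HMSNP.

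At the matched dose, the hollow particles left 4 of the 8 tested genes lower than the mesoporous ones and 1 higher, where 20.2% of all genes tested were called, 11% lower and 9.22% higher. Cd200r4 was 8.84-fold lower in HMSNP (log2 -3.14, SE 0.096, adjusted p = 1.46e-11), Cd200r1 4.60-fold lower (log2 -2.20, adjusted p = 7.76e-09) and Cd274 2.82-fold lower (log2 -1.50, adjusted p = 6.53e-06). Sirpa was 1.33-fold lower (log2 -0.41, adjusted p = 0.000366), and Havcr2 was 1.36-fold higher (log2 0.45, adjusted p = 0.00176). A difference was not shown for Cd80 (log2 0.31, 95% interval 0.01 to 0.61, adjusted p = 0.16), Cd86 (0.27, -0.14 to 0.69, adjusted p = 0.405) or Cd40 (0.24, adjusted p = 0.293). The study describes HMSNPs as hollow and as differing in density and surface composition too, so that these cannot be told apart.

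MSNPs and SNP100 share a nominal diameter but were given at 200 and 50 µg/mL, so porosity and dose cannot be told apart. Of the 8 genes, 5 were higher in MSNP and 1 was lower, against 17.9% of all genes called, 10.4% higher and 7.53% lower. Cd200r4 was 4.21-fold higher (log2 2.07, adjusted p = 7.19e-10), Cd200r1 was higher by 1.49 on the log2 scale (adjusted p = 5.44e-07), Cd274 by 1.45 (adjusted p = 1.1e-05), Sirpa by 0.65 (adjusted p = 5.97e-06) and Cd86 by 0.63 (adjusted p = 0.0481). Havcr2 was lower, with a log2 difference of -0.59 (adjusted p = 0.00018). The call for Cd86 was lost on leaving out any of 8 of the 15 libraries in turn, with adjusted p up to 0.193. Cd28, given as a description, was 5.99-fold higher.

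The nonporous particles of 50 and 100 nm were given at 25 and 50 µg/mL, so size and dose cannot be told apart. By edgeR 0 of the 8 genes, and 0% of all genes tested, passed between SNP50 and SNP100. An unadjusted p under 0.05 was reached by 2 of the 8, and 0 passed in DESeq2. The intervals of the log2 difference were -0.29 to 0.10 for Cd200r4, -0.55 to 0.00 for Cd200r1, -0.65 to 0.08 for Cd274, -0.39 to -0.01 for Havcr2, -0.31 to 0.31 for Cd80 and -0.19 to 0.10 for Sirpa. Cd86 (-0.33 to 0.58) and Cd40 (-0.47 to 0.18) were less well bounded.

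Ordered by level per length (CPM per kilobase of exons), the 10 genes had the same order of group means in all 5 groups, while the distances between them changed. Control ran from Sirpa (119 ± 12.0, SD, n = 3) and Havcr2 (42.3 ± 6.15) over Cd200r1 (5.02 ± 1.19), Cd200r4 (2.77 ± 0.0786), Cd28 (1.83 ± 0.423) and Cd274 (1.05 ± 0.323) to Cd80 (0.695), Cd40 (0.671), Cd86 (0.411) and Pdcd1 (0.307). Neighbours whose libraries overlapped were Cd80 with Cd40 and Cd86 with Pdcd1.

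In MSNP the order began with Sirpa (206 ± 1.63) and Havcr2 (23.8 ± 0.394), and Cd200r1 (21.7 ± 1.42), Cd200r4 (21.4 ± 0.746) and Cd28 (21.3 ± 1.40) had come up close to Havcr2, with overlapping libraries among the last 3. Cd274 (4.08), Cd80 (1.15), Cd40 (0.579) and Cd86 (0.561) followed, and Pdcd1 was at 0. In HMSNP Sirpa (155), Havcr2 (32.4), Cd200r1 (4.72), Cd200r4 (2.43) and Cd28 (1.76) kept the order of Control, and Cd274 (1.44) overlapped with Cd80 (1.42).

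**Figure D3:**
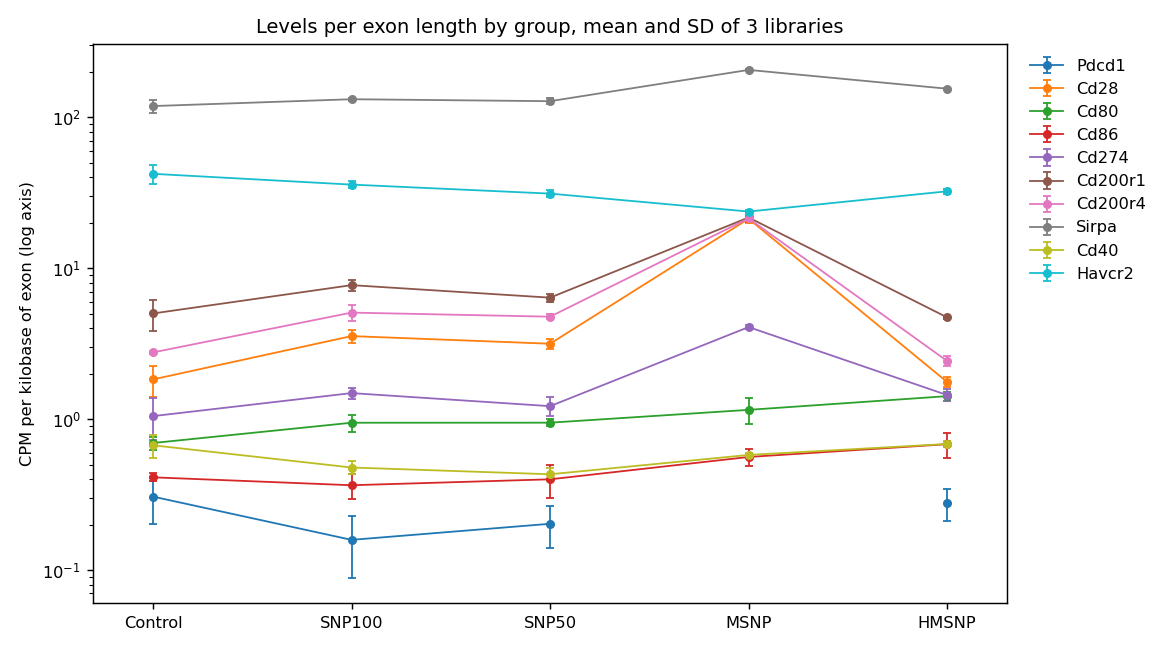
Level per length of the 10 genes in each group, in CPM per kilobase of exons on a log10 axis, with a point at each group's mean, bars for the SD over 3 libraries and lines joining the points of a gene. Cd28, Cd200r1 and Cd200r4 sit between 21.3 and 21.7 in MSNP, close to Havcr2, and Pdcd1 in MSNP is left out because it is at 0.

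The protein-coding genes whose log2 CPM ran most like each of the 10 over the 15 libraries were found among 10458, as a description. The libraries fall into groups, with MSNP apart from the rest for most of these genes, so Pearson's r over the other 12 libraries is given beside it. Cd28 was nearest to Nek6 (r = 0.994, and 0.95 over 12 libraries), Spdl1 (0.994 and 0.94) and Ankrd12 (0.994 and 0.97), and Cd200r4 to Gas6 (0.994 and 0.96), 4933430I17Rik (0.993 and 0.96) and Bhlhe41 (0.992 and 0.97). Cd200r1 was nearest to Eeig1 (0.991 and 0.93), Cerk (0.989 and 0.92) and Ankrd12 (0.989 and 0.93). Ankrd12 appears beside both Cd28 and Cd200r1. Pdcd1 was nearest to E2f2 (0.98 and 0.85), Trim47 (0.98 and 0.84) and Il10ra (0.976 and 0.78), and Cd274 to Ext1 (0.99 and 0.93), Flvcr1 (0.989 and 0.93) and Samd8 (0.987 and 0.92).

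Sirpa was nearest to Eps8 (0.993 and 0.97), Dnmt3a (0.992 and 0.97) and Stat5b (0.987 and 0.97), and Havcr2 to Sla (0.966 and 0.92) and B4galt1 (0.957 and 0.91). Cd80 was nearest to Mcm10 (0.911 and 0.96), Stap1 (0.894 and 0.96) and Map7d1 (0.883 and 0.92), Cd86 to Mlkl (0.878 and 0.89), Spast (0.841 and 0.87) and Wdr41 (0.838 and 0.84), and Cd40 to Surf4 (0.928 and 0.95), Pex19 (0.927 and 0.94) and Ppp2ca (0.9 and 0.91).

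Among the binding partners of these receptors, Ceacam1 was the one that passed the test under MSNPs or HMSNPs. Cd200, Ctla4 and Pdcd1lg2, the second ligand of PD-1, had at most 2, 2 and 4 counts in any library, and Cd40lg had 0 in all 15, which allows up to 3 counts in a library. Cd47, the ligand of SIRPα, stood at 78.1 ± 11.5 CPM (SD, n = 3) in Control, 77.7 ± 2.73 in MSNP (log2 -0.01, adjusted p = 0.976) and 69.8 CPM in HMSNP (log2 -0.16, adjusted p = 0.259). Lgals9, which encodes the TIM-3 ligand galectin-9, stood at 16.6 ± 3.51 CPM in Control, 18.6 CPM in MSNP (log2 0.16, adjusted p = 0.395) and 17.1 CPM in HMSNP (log2 0.04, adjusted p = 0.886). Ceacam1, another partner of TIM-3, rose from 4.86 ± 1.05 CPM to 8.31 ± 0.408 in MSNP (log2 0.78, adjusted p = 0.000471) and 7.58 ± 0.226 in HMSNP (log2 0.65, adjusted p = 0.0107).

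Of 80 further genes listed in these pathways, 64 were tested, and 16 of them were called higher and 12 lower under MSNPs, with a median log2 difference of 0.10. These are 28 of 64, where 22.8% of all genes tested were called. The list of myeloid inhibitory receptors had the most calls, 6 of 12 higher and 4 lower, with a median log2 difference of 0.31. Pirb (log2 1.77, adjusted p = 5.73e-09), Cd33 (1.35, adjusted p = 1.33e-07), Lair1 (0.92, adjusted p = 2.16e-07) and Lilrb4b (1.89, adjusted p = 1.24e-06) rose, and the 4 that fell were Clec4a2 (-1.02, adjusted p = 5.79e-06), Siglece (-0.62, adjusted p = 0.000336), Clec12a (-0.43, adjusted p = 0.00999) and Milr1 (-0.34, adjusted p = 0.0105). The B7 and CD28 family beyond the 5 above had 3 of 6 tested genes lower and 0 higher, with a median of -0.58. These were Vsir, which encodes the inhibitory ligand VISTA (log2 -0.80, adjusted p = 7.87e-08), Cd276 (-0.56, adjusted p = 5.98e-05) and Icosl, the ligand of the costimulator ICOS (-0.59, adjusted p = 0.00203).

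Of 19 downstream signaling genes, 4 were higher and 3 lower in MSNP, where 11.8% of all genes tested were called higher and 11% lower. Ptpn6, the phosphatase SHP-1 that inhibitory receptors recruit, fell by 0.98 on the log2 scale (adjusted p = 1e-08), the adaptor Dok2 by 1.09 (adjusted p = 4.19e-06) and the kinase Map3k14 by 0.97 (adjusted p = 7.38e-07), and Traf6, an adaptor of CD40 signaling, rose by 0.51 (adjusted p = 0.00655). In the CD200 and SIRP list 1 of 6 was called, Cd200r2, with 16, 23 and 28 counts in MSNP against 2, 2 and 2 in Control. Cd200r2 shares sequence with Cd200r4, and what part of its counts comes from Cd200r4 was not tested.

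The list of TIM, TIGIT and SLAM partners had 2 of 7 higher, Pvr (log2 0.40, adjusted p = 0.000339) and Ceacam1, and 1 lower, Nectin2 (-0.47, adjusted p = 0.0148). The tumor necrosis factor family list had 3 of 9 higher and 1 lower. Over all genes tested, 11.8% were called higher and 11% lower in MSNP. Tnfsf18 had 26, 28 and 27 counts in MSNP against 1, 0 and 3 in Control. Tnfrsf9 (0.70, adjusted p = 0.0224) and Tnfsf14 (0.73, adjusted p = 0.0238) rose and Tnfrsf4 fell by 0.90 (adjusted p = 0.0402). These genes were low, with 32 to 36, 30 to 37 and 12 to 21 counts in MSNP libraries, in that order. Control libraries had 18 to 28, 17 to 25 and 21 to 42 counts, and in CPM the groups overlapped for Tnfrsf4. None of 5 MHC class II genes was called in MSNP or HMSNP by edgeR, with 1 and 0 at an unadjusted p under 0.05 and 0 called by DESeq2.

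In HMSNP 8 of the 64 were called higher and 1 lower, where 2.46% of all genes tested were called higher and 2.7% lower. Pirb (log2 1.12, adjusted p = 1.19e-05), Lair1 (0.41, adjusted p = 0.0038) and Lilrb4b (0.92, adjusted p = 0.00597) were again among the higher myeloid receptors, 3 of 12. The 4 downstream genes called were Nfkb2 (0.62, adjusted p = 2.56e-05) and Relb (0.59, adjusted p = 0.00207), subunits of the noncanonical NF-κB pathway that CD40 drives, with Dok2 (0.50, adjusted p = 0.0206) and Ptpn6 (0.23, adjusted p = 0.0352). The gene called lower was Sirpb1a (-1.39, adjusted p = 0.0325), from 4 to 8 counts per library against 12 to 19 in Control. DESeq2 called 0 genes of its list, the CD200 and SIRP list, in HMSNP. In the B7 and CD28 family 0 of 6 genes passed, with 3 at an unadjusted p under 0.05 and 1 called by DESeq2. Between HMSNP and MSNP 12 of the 64 were higher and 14 lower, where 9.22% of all genes tested were higher and 11% lower.

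**Figure D4:**
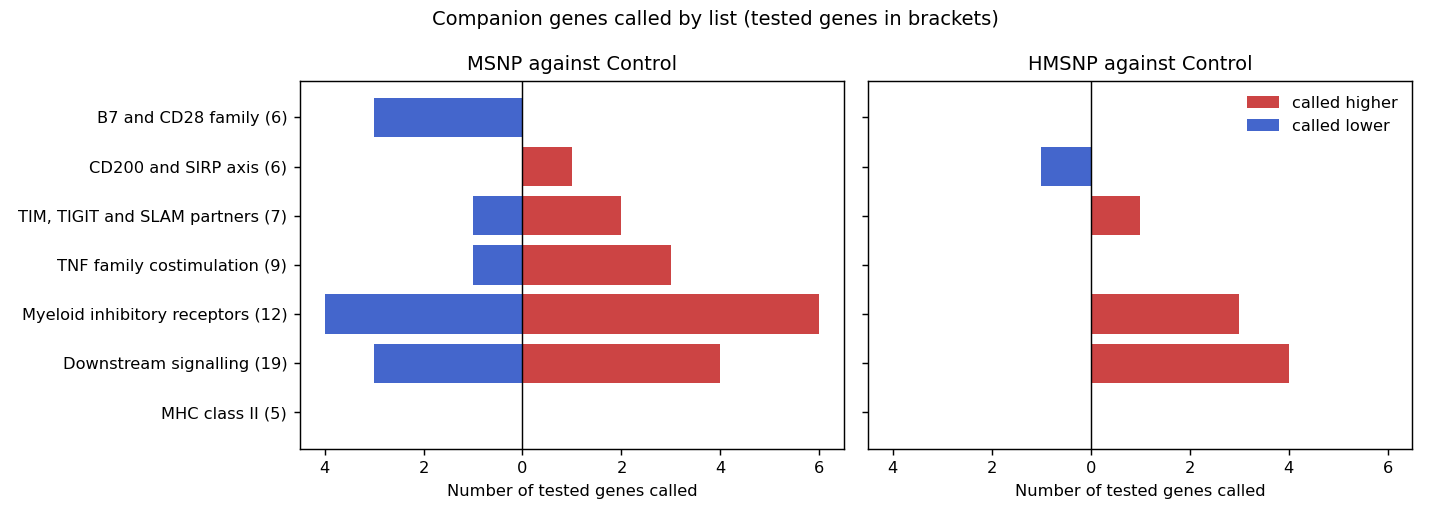
Number of genes called higher and lower than Control, for MSNP and HMSNP, in each of 7 lists of further pathway genes, with the number tested beside each list. Myeloid inhibitory receptors have the most calls in MSNP, 6 higher and 4 lower of 12 tested, and no MHC class II gene was called in either group.

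Under each of the nonporous particles 2 of the 64 were called, where 0.912% of all genes tested were called in SNP100 and 1.41% in SNP50. SNP100 had Cd33 higher (log2 0.51, adjusted p = 0.0288) and Vsir lower (-0.28, adjusted p = 0.0368), and SNP50 had Vsir (-0.34, adjusted p = 0.00987) and Clec4a2 (-0.53, adjusted p = 0.0293) lower. Without Control replicate 3 these counts rose from 2 to 10 in SNP100 and from 2 to 20 in SNP50. Without Control replicate 2 the count in HMSNP rose from 9 to 18. The share of all genes called without those controls is not given here, so these rises are not read as particular to the list. The annotation places exons of other genes on the opposite strand over 346 bases of Cd80, 800 bases of Cd274 and 228 bases of Cd200r1, and the strand setting of the counting is not given in the sources used here.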

How the data were processed

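The study cultured RAW264.7 cells with silica nanoparticles for 6 h and sequenced poly(A) RNA from directional libraries, with 3 libraries in each of the 5 groups. Groups come from the sample labels, and doses and diameters from the study's methods. The deposited table holds raw counts per gene and library, not normalized and with replicates kept apart. The submitters' processing notes name STAR 2.7.9a, cutadapt 1.16, featureCounts 1.6.3 and GRCm39. The annotation and strand setting of the counting are not given in the sources used here.

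Genes were named through GENCODE vM39 (56630 of 57186 identifiers matched), which also gave positions and exon lengths. The 19839 genes whose counts over the 15 libraries came to 10 or more were fitted in R 4.3.3 with edgeR 4.0.16 (TMM, 1 model of all 15 libraries, quasi-likelihood test) and adjusted by Benjamini-Hochberg over all of them. The call threshold was an adjusted p of 0.05. SE is the log2 fold change over the root of F. CPM used TMM-scaled library sizes. A group at 0 counts was set to a floor of 3 counts over the group.

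The 10 genes and all lists were chosen with earlier results of these data known, so no pattern here is independent support. Named beside the 10 were at most 4 called genes of lowest p per list in MSNP and in HMSNP, fixed binding partners, and the 3 genes of highest correlation with each (mean of at least 1 CPM, prior count 2). Some items of these lists are not reported here. Genes of the nonporous groups, 2 for each, and the 4 myeloid receptors that fell in MSNP were named after their values were seen. Totals of 29369934 to 42617812 counts set the precision, and floors cover counting error only, while the intervals of the fit include the spread between libraries. Alternatives were DESeq2 1.42.0, RLE scaling, the filterByExpr filter, no filter, a length offset (lowess span 0.3), the 6 libraries of each comparison, the replicate number as a block and leaving out each library. The steps were tested on simulated data. Promoters came from RefSeq on GRCm38.p6, and no coordinate was carried between builds.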

Additional observations from a re-analysis of the deposited data

How the results depend on the processing

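The 6 calls of MSNP against Control and the 5 of HMSNP against MSNP, among the 8 tested genes, kept their number under every alternative run, leaving out each library included (6 to 6 and 5 to 5). For MSNP against SNP100 the number was 6, or 5 without a filter and 5 to 6 on leaving out a library. The other numbers were less firm. On leaving out each library SNP100 called 1 to 3, SNP50 1 to 3 and HMSNP 2 to 5, and with only the 6 libraries of a comparison they called 0, 0 and 1. With the length offset SNP100 called 1. SNP50 against SNP100 stayed at 0 throughout. For the alternatives, the replicate block included, the share of all genes called is not given here. Changes in these numbers are therefore not read as particular to the tested genes.

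Of the 64 further genes, the fit of 6 libraries called 0 in SNP100, 0 in SNP50, 16 in MSNP (against 28) and 2 in HMSNP (against 9). In SNP100 DESeq2, the filterByExpr filter and the length offset called 5 each, and in SNP50 DESeq2 called 4 and the length offset 5. Without the share of all genes called under each of these fits, the falls and rises are not read as particular to the list.

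The labels do not say whether the replicate numbers pair the samples. Correlations of same-numbered deviations ran from -0.52 to 0.57, and with 3 libraries in a group they cannot settle it. With the replicate block the 8 genes gave 2 calls in SNP100, 2 in SNP50, 6 in MSNP, 4 in HMSNP, 5 in HMSNP against MSNP, 6 in MSNP against SNP100 and 0 in SNP50 against SNP100, and the 64 further genes 1 each in SNP100 and SNP50.

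Signs turned only in uncalled differences. Cd80 between SNP50 and SNP100 (0.00) was -0.01 under DESeq2, RLE, filterByExpr and no filter, -0.04 with the length offset and -0.07 to 0.11 on leaving out a library. Cd200r1 in HMSNP was 0.01 with the length offset and -0.23 to 0.13 on leaving out a library. The ranges were -0.06 to 0.29 for Cd86 between SNP50 and SNP100, -0.21 to 0.11 for Cd86 in SNP50 and -0.05 to 0.18 for Cd40 in HMSNP. Causes were not tested.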
